A study of Mus musculus with 9 samples.

Results

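The angiopoietins and the Tie receptors are a ligand and receptor system of the blood vessel wall. It was followed in BM cells labelled as ECs, sorted as CD45-Ter119-CD31+ cells and split by Sca-1. Its 5 members were the rows of the read count table named Angpt1, Angpt2, Tek, Tie1 and Ptprb, out of 46078 genes in all. Angpt1 is the secreted ligand that activates the receptor Tie2, which is encoded by Tek, and Angpt2 is a related ligand stored and released by ECs that can block or activate the same receptor depending on context. Tie1 is a receptor of the same family that binds no angiopoietin well by itself and modulates Tie2 in a complex with it, and Ptprb (VE-PTP) is an endothelial receptor phosphatase that removes phosphate from Tie2 and associates with VE-cadherin. In BM, Angpt1 is known from megakaryocytes, from perivascular stromal cells and from haematopoietic stem and progenitor cells, and Tie2 is found on ECs and on a fraction of haematopoietic stem cells.

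There were 4 libraries of Sca-1+ cells, whose labels end in 7, 13, 15 and 19, and 5 libraries of Sca-1- cells, whose labels end in 8, 10, 14, 16 and 22, all labelled as wild type of strain B6, from normal mice with no treatment named. The titles also carry a mark that divides both fractions, wt for Sca-1+ libraries 15 and 19 and Sca-1- libraries 8 and 16, CD452 for Sca-1+ library 13 and Sca-1- libraries 10, 14 and 22 (its digits alone in library 10), and neither for Sca-1+ library 7. What this mark stands for is not given in the sources used here. The study takes ECs that stain strongly for Sca-1 to line arterioles and those that stain weakly to line sinusoids. As given below, the Sca-1- libraries were low in endothelial RNA, so the fractions do not compare these ECs alone. Libraries were made from polyA RNA with a low-input kit that copies full-length cDNA. The age and sex of the mice, and whether cells of several mice were pooled, are not given in the sources used here, so the p-values measure the spread between these libraries, which may be technical.

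The sort was visible in the RNA, but the defining markers went against the endothelial label of the Sca-1- libraries. Ly6a, which encodes Sca-1, was at 873 to 1304 CPM (reads of a gene relative to all reads of its library, with library sizes scaled by edgeR's TMM method) in the Sca-1+ libraries and at 0.240 to 1.49 CPM in the Sca-1- libraries. Pecam1, which encodes the sorted antigen CD31 and is also expressed by megakaryocytes and platelets, overlapped between the fractions, at 1136 to 1758 CPM against 334 to 1699 CPM. A list of 21 general endothelial genes took 1.63% to 2.21% of the counts in each Sca-1+ library and 0.0822% to 0.117% in each Sca-1- library, with no gene at 0 in any library. In Sca-1- libraries the list summed to 904.5 to 1488 CPM, of which Myct1 alone was at 127 to 1175 CPM. The mean log2 CPM of the list ran there from 2.79 in library 10 to 4.69 in library 22. A list of 12 megakaryocyte genes took 0.00318% to 0.00964% against 2.88% to 6.05%, and 7 leukocyte genes took 0.000329% to 0.00414% against 0.162% to 0.227%. The Sca-1- libraries are therefore called by their sort alone. Depth was similar, with 23058385 to 24657204 counts per Sca-1+ library and 21581653 to 25959818 per Sca-1- library, and 3 counts, the level that a count of 0 allows, stood for 0.0995 to 0.209 CPM. These floors cover counting error only.

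Tek and Tie1 lie on the same chromosome, and promoter windows from RefSeq (build GRCm38.p6) were read for these members. Windows of Angpt1, Angpt2 and Ptprb were not available. The windows below run 5′ to 3′ on the gene's strand, from 250 bases before to 50 bases after the RefSeq start. Capitals mark GGAA or its reverse complement TTCC, the core of the sites bound by ETS factors, a family that regulates endothelial genes.
Tek, chr4:94739039-94739338, plus strand: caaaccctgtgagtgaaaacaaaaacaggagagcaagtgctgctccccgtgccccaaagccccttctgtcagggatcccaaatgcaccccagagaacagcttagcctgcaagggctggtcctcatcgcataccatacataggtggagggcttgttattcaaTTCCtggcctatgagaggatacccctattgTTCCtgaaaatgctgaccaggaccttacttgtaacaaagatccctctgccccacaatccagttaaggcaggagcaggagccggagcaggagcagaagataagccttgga
Tie1, chr4:118489800-118490099, minus strand: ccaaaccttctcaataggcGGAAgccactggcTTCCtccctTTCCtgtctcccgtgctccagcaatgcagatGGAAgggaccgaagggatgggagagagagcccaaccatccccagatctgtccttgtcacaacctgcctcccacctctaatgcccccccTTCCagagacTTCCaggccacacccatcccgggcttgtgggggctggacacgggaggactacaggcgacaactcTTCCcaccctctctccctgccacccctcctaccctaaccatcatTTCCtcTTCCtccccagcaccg

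The receptor windows differed in these letters, but they do not cover like regions. The RefSeq start of Tek is also its GENCODE M21 start, 94739289. For Tie1 the GENCODE gene begins at 118490061 on the minus strand, before the RefSeq start. Most of the bases shown before the Tie1 start therefore lie inside the annotated gene. The Tek window held 2 GGAA matches on either strand, and 84.64% of 32851 RefSeq promoter windows of the same length held at least as many, while the Tie1 window held 9, which 1.59% of windows reached. The longer form AGGAAG, which contains GGAA, was absent from the Tek window and occurred 2 times in that of Tie1, and 8.62% of windows held at least as many. CGGAAG, which also contains GGAA, occurred 1 time in the Tie1 window and is found in 16.85% of windows. AGATAA, a form of the site of GATA factors, occurred 1 time in the Tek window, from base 37 to base 42 after the start, and in 11.18% of windows, and TGATAA occurred in neither. These are matches of letters, and binding was not measured.

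With libraries scaled by TMM, Tek, Tie1, Ptprb and Angpt2 were higher and Angpt1 lower in Sca-1+ than in Sca-1- libraries. With libraries scaled to the 21 endothelial genes, Tie1 and Angpt2 were instead lower in Sca-1+ libraries, as Angpt1 was. Under that scaling Tek and Ptprb, with log2 fold changes of -0.17 and 0.84, did not differ past a threshold of 0.05 on the adjusted p. All 5 members were among the 15937 genes that passed the filter on low counts. By edgeR's quasi-likelihood test with Benjamini-Hochberg adjustment over these genes, 4 members were called higher at a threshold of 0.05, as were 23.3% of all genes, and 1 was called lower, as were 21.4%. No member overlapped between the fractions, so each kept its direction among the libraries marked wt and among those marked CD452. The 4 higher members were above in every Sca-1+ library, as were 24.8% of all genes, and Angpt1 was above in every Sca-1- library, as were 18.8%. In these bulk samples, fewer cells of a type and less RNA per cell cannot be told apart.

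**Figure D1:**
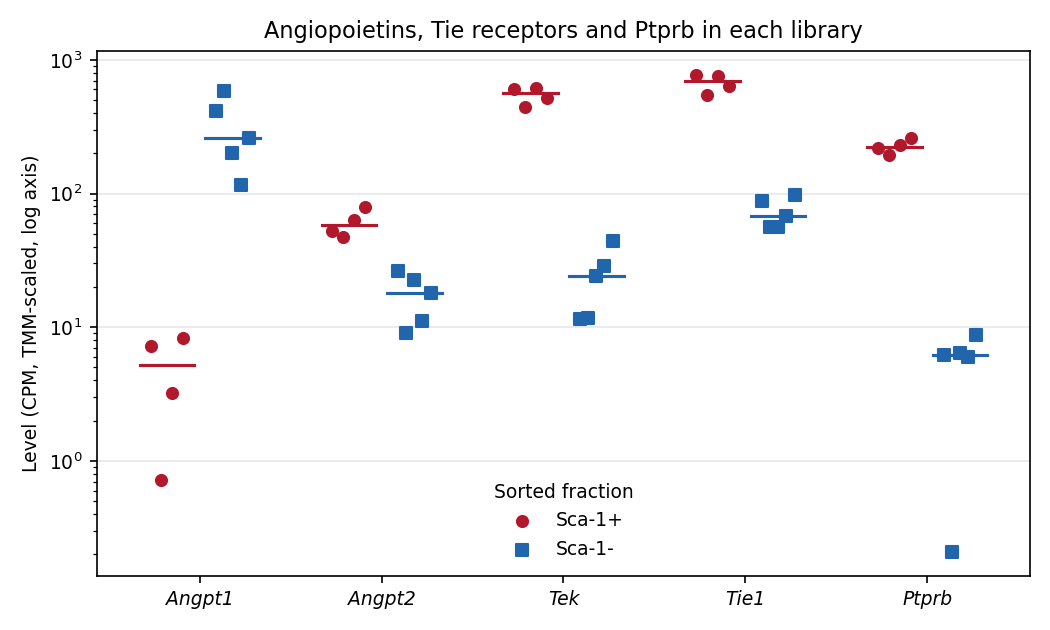
Level of each member in each library in TMM-scaled CPM on a log axis, with Sca-1+ libraries as red circles, Sca-1- libraries as blue squares, and a line at each fraction's median. The fractions do not overlap for any of the 5 genes, and Angpt1, between 0.714 and 8.31 CPM in Sca-1+ libraries, is the member that is higher in Sca-1- libraries under every scaling tried. With libraries scaled to endothelial genes, Tie1 and Angpt2 are lower in Sca-1+ libraries, and Tek and Ptprb do not pass the threshold.

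The ligand Angpt1 (ENSMUSG00000022309, chromosome 15, 42424723 to 42676977 on the minus strand in GENCODE M21, GRCm38) was counted at 7.28, 0.714, 3.24 and 8.31 CPM in Sca-1+ libraries 7, 13, 15 and 19, which were 214, 21, 94 and 215 reads. In Sca-1- libraries 8, 10, 14, 16 and 22 it was at 412, 586, 203, 115 and 261 CPM. Library 13 was the low Sca-1+ library and library 10 the high Sca-1- library, and even the nearest libraries of the fractions lay 13.8-fold apart. The mean was 4.89 ± 3.54 CPM (SD, n = 4) in Sca-1+ and 315 ± 186 CPM (SD, n = 5) in Sca-1- libraries, 64.5-fold lower in Sca-1+ libraries. The log2 fold change was -6.01 (SE 0.821) with an adjusted p of 0.000286 by edgeR. Within a fraction it was the most spread member of the Sca-1+ libraries, with 11.6-fold between the highest and the lowest, and it spread 5.09-fold among the Sca-1- libraries. Of the exon length of Angpt1, 14.16% (737 bp) also belongs to Gm17473 on the opposite strand. The use of strand in counting is not given in the sources used here, so reads of the 2 genes cannot be told apart in that stretch. Gm17473 itself was at 0 to 0.647 CPM in Sca-1+ and 7.53 to 36.7 CPM in Sca-1- libraries.

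The ligand Angpt2 (ENSMUSG00000031465, chromosome 8, 18690263 to 18741562, minus strand) went the other way under TMM. It was at 52.7, 47.5, 63.9 and 79.1 CPM in Sca-1+ libraries 7, 13, 15 and 19. It was at 26.5, 8.99, 22.5, 11.1 and 17.9 CPM in Sca-1- libraries 8, 10, 14, 16 and 22. No library overlapped, but the gap was the smallest of the members, with 1.80-fold between Sca-1+ library 13 and Sca-1- library 8. The mean of 60.8 ± 13.97 CPM (SD, n = 4) was 3.50-fold that of 17.4 ± 7.38 CPM (SD, n = 5), a log2 fold change of 1.81 (SE 0.335) with an adjusted p of 0.00163 by edgeR, and of -3.0 (adjusted p 5.89e-05 by edgeR) with libraries scaled to endothelial genes.

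The make-up of the angiopoietin RNA differed between the fractions whatever the scaling, since shares are taken within a library. Per exon length, and counting also Angpt4, the third mouse angiopoietin, Angpt2 made up 70.2%, 96.8%, 83.5% and 82.0% of the total in Sca-1+ libraries 7, 13, 15 and 19. In Sca-1- libraries 8, 10, 14, 16 and 22 its share was 8.30%, 2.12%, 13.5%, 11.8% and 8.78%, and Angpt1 took 91.7%, 97.9%, 86.5%, 86.8% and 90.7%. Angpt2 was thus the main angiopoietin transcript in every Sca-1+ library and Angpt1 in every Sca-1- library. The share of Angpt1 was 4.26% ± 2.73 (SD, n = 4) against 90.7% ± 4.62 (SD, n = 5). Angpt4 took 22.9%, 2.19%, 13.5% and 11.9% in the Sca-1+ libraries, from 20 to 320 reads. It was at 0 reads in Sca-1- libraries 8, 10 and 14 and at 1.34% and 0.566% in 16 and 22. The log2 ratio of Angpt2 to Angpt1, from CPM without length, was 4.06 ± 1.37 (SD, n = 4) against -4.07 ± 1.13 (SD, n = 5). This difference of 8.13 had p = 0.0079 in the exact permutation test over the 126 ways to assign 9 libraries, two-sided, the smallest p this design allows, and an adjusted p of 0.0159 over the 8 ratios tested.

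**Figure D2:**
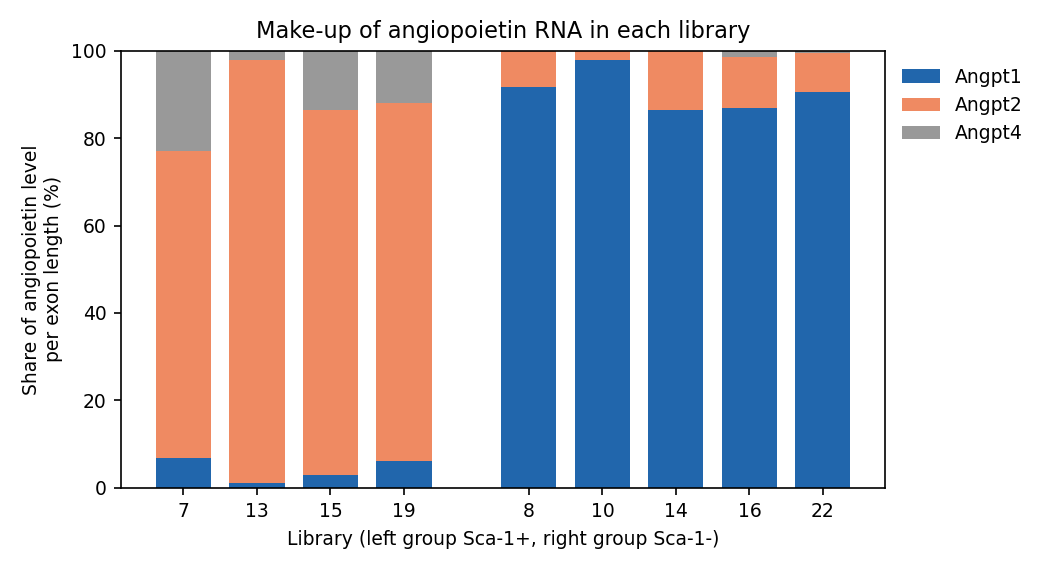
Share of Angpt1, Angpt2 and Angpt4 in the summed angiopoietin level of each library, in percent, with CPM divided by exon length; the left group of bars is Sca-1+ and the right group Sca-1-. Angpt2 takes 70.2% to 96.8% of the Sca-1+ bars and Angpt1 takes 86.5% to 97.9% of the Sca-1- bars.

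The receptor Tek (Tie2; ENSMUSG00000006386, chromosome 4, 94739289 to 94874976, plus strand) was at 605, 445, 619 and 516 CPM in Sca-1+ libraries 7, 13, 15 and 19. In Sca-1- libraries 8, 10, 14, 16 and 22 it was at 11.5, 11.8, 24.15, 28.9 and 44.4 CPM, from 169 to 1092 reads. The Sca-1+ libraries were close to each other, within 1.39-fold, the Sca-1- libraries spread 3.88-fold with libraries 8 and 10 lowest, and 10.02-fold separated the nearest libraries of the fractions. The mean was 546 ± 81.5 CPM (SD, n = 4) in Sca-1+ and 24.15 ± 13.7 CPM (SD, n = 5) in Sca-1- libraries, 22.6-fold higher in the former under TMM. The log2 fold change of 4.50 (SE 0.435) had an adjusted p of 4.83e-05 by edgeR, and scaled to endothelial genes it was -0.17 (adjusted p 0.672 by edgeR).

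Tie1 (ENSMUSG00000033191, chromosome 4, 118471191 to 118490061, minus strand), the second receptor of the family, was at 775, 542, 760 and 638 CPM in Sca-1+ libraries 7, 13, 15 and 19. It was at 88.5, 56.4, 56.1, 68.3 and 97.2 CPM in Sca-1- libraries 8, 10, 14, 16 and 22. Tie1 kept the narrowest spread of the members in the Sca-1- libraries, 1.73-fold, and the order of the Sca-1- libraries was not that of Tek, since library 8 was lowest for Tek and next to highest for Tie1. The mean of 679 ± 110.1 CPM (SD, n = 4) was 9.25-fold that of 73.3 ± 18.8 CPM (SD, n = 5). The log2 fold change was 3.21 (SE 0.256) with an adjusted p of 2.23e-05 by edgeR, and -1.63 (adjusted p 0.003 by edgeR) with libraries scaled to endothelial genes.

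The phosphatase Ptprb (ENSMUSG00000020154, chromosome 10, 116275523 to 116389535, plus strand) had the largest log2 fold change of the members toward Sca-1+ libraries. It was at 220, 195, 229 and 258 CPM in Sca-1+ libraries 7, 13, 15 and 19. In Sca-1- libraries 8, 14, 16 and 22 it was at 6.18, 6.44, 6.0 and 8.78 CPM, and in library 10 at 0.209 CPM, which was 3 reads and thus at the floor. Among Sca-1+ libraries the spread was 1.32-fold, the narrowest of the members, while library 10 alone widened the Sca-1- spread to 42.0-fold. The mean of 225 ± 26.1 CPM (SD, n = 4) was 40.55-fold that of 5.52 ± 3.18 CPM (SD, n = 5). The log2 fold change of 5.34 (SE 0.697) had an adjusted p of 0.000226 by edgeR and was 4.98 without library 10. Scaled to endothelial genes it was 0.84 (adjusted p 0.161 by edgeR).

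Levels of different members can be set beside each other only per length of exon. In Sca-1+ libraries the order in CPM per kb was Tie1 at 138 ± 22.4 (SD, n = 4), Tek at 116 ± 17.3, Ptprb at 16.9 ± 1.96, Angpt2 at 16.5 ± 3.79 and Angpt1 at 0.939 ± 0.680. The ranges of Tie1 and Tek overlapped, as did those of Ptprb and Angpt2. In Sca-1- libraries the order was Angpt1 at 60.6 ± 35.7 CPM per kb (SD, n = 5), Tie1 at 14.9 ± 3.82, Tek at 5.12 ± 2.90, Angpt2 at 4.71 ± 2.00 and Ptprb at 0.414 ± 0.238. Only Tek and Angpt2 overlapped among these neighbours, and the lowest Angpt1 value, 22.1 CPM per kb in library 16, lay just above the highest Tie1 value, 19.8 in library 22. The ligand that was lowest of the members in Sca-1+ libraries was thus the highest in Sca-1- libraries.

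Ratios taken within a library do not depend on how libraries are scaled to each other. Tie1 stood 1.23, 1.17, 1.18 and 1.18 times above Tek per exon length in Sca-1+ libraries 7, 13, 15 and 19. In Sca-1- libraries 8, 10, 14, 16 and 22 it stood 7.41, 4.59, 2.23, 2.26 and 2.10 times above Tek. The balance of the receptors was nearly constant in the Sca-1+ libraries and tilted to Tie1 in every Sca-1- library, most of all in libraries 8 and 10. The log2 ratio from CPM was 0.31 ± 0.03 (SD, n = 4) against 1.75 ± 0.81 (SD, n = 5), a difference of -1.44 with p = 0.0079 in the two-sided exact permutation test and an adjusted p of 0.0159 over the 8 ratios. Leaving out any single Sca-1+ library left the difference at -1.46 to -1.43 but with an adjusted p of 0.0857 by the exact permutation test. Ptprb per exon length was 0.128 to 0.177 of Tek in Sca-1+ libraries and 0.00627 to 0.191 of it in Sca-1- libraries, where library 10 was lowest and library 8 highest. That log2 ratio overlapped between the fractions, with a difference of 1.27 and an adjusted p of 0.154 by the exact permutation test. Without library 8 it was 1.69 with an adjusted p of 0.0327 by the same test. All ratios but Tek relative to endothelial genes had that adjusted p without library 8, so it is not stronger evidence.

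Set against the general endothelial genes of the same library, Tek did not differ past the threshold, while Tie1, Angpt2 and Angpt1 were lower in Sca-1+ libraries. The log2 ratio of Tek to the mean of the 21 endothelial genes was 0.29 ± 0.15 (SD, n = 4) in Sca-1+ and 0.38 ± 0.60 (SD, n = 5) in Sca-1- libraries, which overlapped, with a difference of -0.09 and an adjusted p of 0.817 by the exact permutation test. The sign of this small difference was not stable, and leaving out 1 library at a time gave -0.33 to 0.02, above 0 without Sca-1- library 10, 14 or 22. Tie1 was lower relative to endothelial genes in Sca-1+ libraries, at 0.60 ± 0.17 against 2.13 ± 0.60, a difference of -1.53 with an adjusted p of 0.0254 by the exact permutation test. Angpt2 was at -2.89 ± 0.33 against -0.02 ± 0.81, a difference of -2.87 with an adjusted p of 0.0159 by the same test. Ptprb had ratios of -1.10 to -0.72 in Sca-1+ and -4.58 to -1.15 in Sca-1- libraries, and its difference of 1.19 did not pass, with an adjusted p of 0.0952 by the exact permutation test. With the median of the 21 genes as reference in place of the mean, the Ptprb difference was 0.92, with an adjusted p of 0.294 by the same test. Without library 10 and with the mean as reference it was 0.58. Leaving out any single Sca-1- library gave an adjusted p of 0.0327 to 0.0381 by the exact permutation test. Tie1, Angpt2 and Angpt1 relative to endothelial genes took the same adjusted p with the same library left out. Fewer libraries leave the test fewer assignments and so fewer possible p-values, and this is not stronger evidence for Ptprb. Angpt1 differed most, by -11.01 with an adjusted p of 0.0159 by the exact permutation test. Of the 21 reference genes, 20 were higher in Sca-1+ libraries under TMM and Myct1 did not pass, with a median log2 fold change of 5.004.

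**Figure D3:**
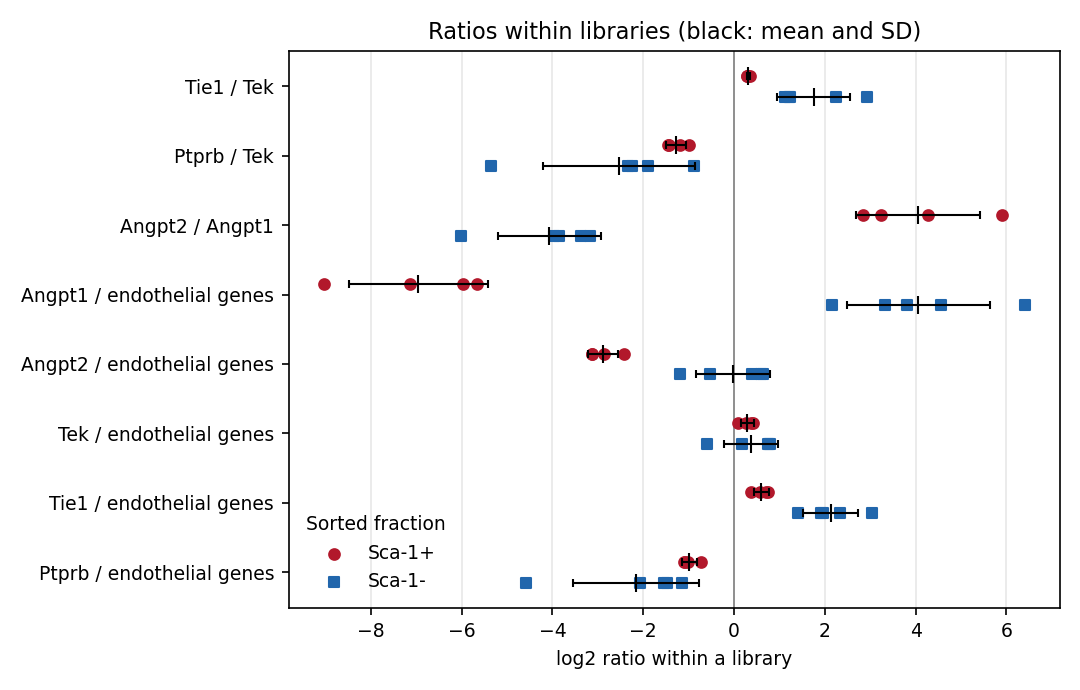
Log2 ratios within each library, from CPM, for 3 pairs of members and for each member over the mean of 21 endothelial genes; red circles are Sca-1+ and blue squares Sca-1- libraries, and black marks give mean and SD. The fractions separate widely for the ratios that hold Angpt1, overlap for Tek over endothelial genes and for Ptprb over Tek, and Sca-1- library 10 stands low in the ratios that hold Ptprb.

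Beside the members, markers of other cells moved with the fractions, while 23.3% of all genes were called higher and 21.4% lower in Sca-1+ libraries. All 12 megakaryocyte genes were lower in Sca-1+ libraries, with a median log2 fold change of -10.59, and none was at 0 in every library. Their summed level was 28.3 to 79.0 CPM in Sca-1+ libraries. In Sca-1- libraries 8, 10, 14, 16 and 22 it was 84409, 104053.8, 51260.2, 24753.7 and 34548 CPM. Libraries 10 and 8 were the highest and library 16 the lowest for both Angpt1 and this sum, and Angpt1 came to 4.88, 5.63, 3.95, 4.65 and 7.57 CPM per 1000 CPM of megakaryocyte genes in the 5 libraries. In Sca-1+ libraries 7, 13, 15 and 19 the same quotient was 146, 9.04, 61.6 and 294. The part of megakaryocyte RNA in the Angpt1 difference was not tested.

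Among the Sca-1+ libraries, Angpt1 had the order of Lepr, a gene of perivascular stromal cells, which was at 141, 38.1, 80.8 and 151 CPM in libraries 7, 13, 15 and 19. The 9 marrow stromal genes, of which Ebf3, Foxc1, Adipoq and Lepr were higher and Col1a1 and Col1a2 lower in Sca-1+ libraries under TMM, summed to 262 to 1047 CPM there and to 3057 to 41596.3 CPM in Sca-1- libraries. Of 11 pericyte and smooth muscle genes, 8 were higher in Sca-1+ libraries under TMM, as were 23.3% of all genes, with sums of 686 to 1669 CPM against 20.3 to 97.3 CPM. Their part in the level of Angpt1 or Angpt2 was not tested. The 7 progenitor genes summed to 65.9, 68.7, 234, 290 and 266 CPM in Sca-1- libraries 8, 10, 14, 16 and 22, where Tek was also lowest in libraries 8 and 10. In Sca-1+ libraries they summed to 42.8 to 86.8 CPM, and Hoxa9 was called higher and Myb and Cd48 lower. Their part in the Tek level was not tested either. Of 7 erythroid genes, 5 were lower in Sca-1+ libraries, as were 21.4% of all genes, with sums of 41.0 to 170 CPM against 488 to 1976 CPM.

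**Figure D4:**
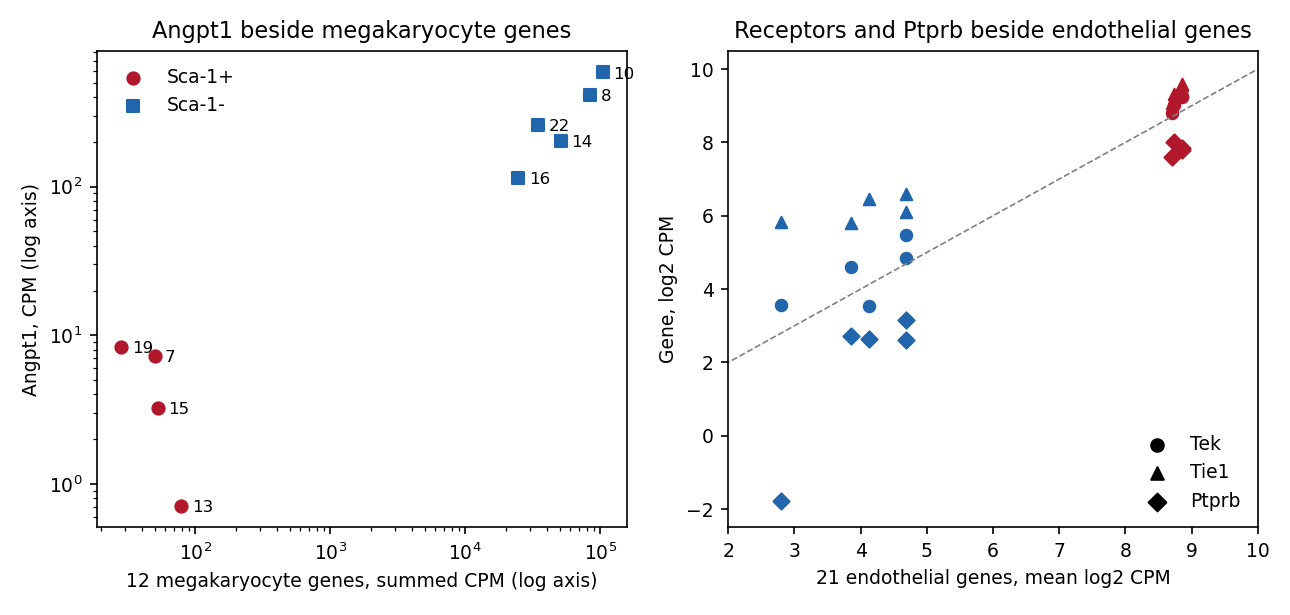
Left, Angpt1 against the summed CPM of 12 megakaryocyte genes on log axes, with library numbers; right, log2 CPM of Tek, Tie1 and Ptprb against the mean log2 CPM of 21 endothelial genes with a dashed line of equality (red, Sca-1+; blue, Sca-1-). The Sca-1- libraries with the highest megakaryocyte sums, 8 and 10, have the highest Angpt1 (412 and 586 CPM). Tek lies 0.09 to 0.41 log2 units above the line in Sca-1+ libraries and from -0.60 to 0.78 about it in Sca-1- libraries. Tie1 lies above the line in every library, by 0.38 to 0.74 in Sca-1+ and by 1.41 to 3.03 in Sca-1- libraries.

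Vessel subtype markers gave no simple split. All 8 arterial endothelial genes were higher in Sca-1+ libraries under TMM, as were 23.3% of all genes, with sums of 809 to 1066 CPM against 9.07 to 37.3 CPM. Of 6 sinusoidal endothelial genes, Mrc1, Stab2, Vcam1, Stab1 and Flt4 were higher in Sca-1+ libraries as well and Lyve1 was lower, with sums of 631 to 1191 CPM against 51.5 to 221 CPM. Scaled to endothelial genes, 4 arterial and 0 sinusoidal genes remained higher, beside 177 called higher among all 15937 genes.

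Like all genes tested, the wider pathway went both ways under TMM and mostly down with endothelial scaling. Of 68 genes in 7 lists around the system, 62 were tested, and 24 were higher, 18 lower and 20 not past the threshold under TMM, with a median log2 fold change of 0.25 against 0.07 over all genes tested. With libraries scaled to endothelial genes, 1 of the 62, Epas1, was called higher, 54 were called lower and 7 did not pass, with a median log2 fold change of -4.79. Of all 15937 genes tested, that scaling called 177 higher and 14404 lower, with a median of -4.82. The pathway thus moved with the genes as a whole.

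Among other ligands and their partners (5 genes), 2 were higher and 0 lower, with a median log2 fold change of 0.17, beside 23.3% and 21.4% of all genes. Itga5, the integrin chain that serves as a fibronectin receptor and can interact with Tie2, was at 212 ± 20.5 CPM (SD, n = 4) in Sca-1+ and 59.4 ± 12.8 CPM (SD, n = 5) in Sca-1- libraries, a log2 fold change of 1.83 (adjusted p 0.000109 by edgeR) that became -3.21 with endothelial scaling. Angpt4 was at 10.9, 0.680, 6.55 and 7.27 CPM in Sca-1+ libraries 7, 13, 15 and 19, and at 0, 0, 0, 0.796 and 0.732 CPM in Sca-1- libraries 8, 10, 14, 16 and 22. The fractions overlapped for it, library 13 lying below the highest Sca-1- libraries, and it was called higher with an adjusted p of 0.0206 by edgeR. Svep1, Itgb1 and Itgav did not pass. Of the angiopoietin-like genes, secreted relatives that do not bind Tie2, 5 were tested and 1 passed, Angptl4, an inhibitor of lipoprotein lipase. Its level of 474 ± 196 CPM (SD, n = 4) in Sca-1+ libraries stood beside 30.4 ± 28.2 CPM (SD, n = 5), and the log2 fold change was 3.96 (adjusted p 0.000642 by edgeR), or -0.63 (adjusted p 0.238 by edgeR) with endothelial scaling.

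Of the R3 receptor phosphatases, the family of Ptprb, Ptpro, Ptprh and Ptprq did not pass the filter on low counts. Ptprj, the only one tested and a phosphatase of ECs, platelets and leukocytes, was at 0.939 ± 0.425 CPM (SD, n = 4) in Sca-1+ and 106 ± 77.3 CPM (SD, n = 5) in Sca-1- libraries, a log2 fold change of -6.81 (adjusted p 8.58e-05 by edgeR).

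Of 14 adaptors that act below Tie2, 3 were higher, 5 lower and 6 not past the threshold under TMM, with a median log2 fold change of -0.48. The shares over all genes were 23.3% higher and 21.4% lower. The docking protein Dok2, which Tie2 recruits and which is also a protein of haematopoietic cells, was at 1.01 ± 0.381 CPM (SD, n = 4) in Sca-1+ and 414 ± 78.1 CPM (SD, n = 5) in Sca-1- libraries, a log2 fold change of -8.67 (adjusted p 3.32e-06 by edgeR). Nck2, an SH2 and SH3 adaptor, fell by 4.38 on the log2 scale (adjusted p 0.000522 by edgeR), while its relative Nck1 had a log2 fold change of 1.01 (adjusted p 0.0367 by edgeR) with fractions that overlapped, and an adjusted p of 0.0886 with the size factors of DESeq2 in edgeR. Sos1, the exchange factor for Ras, had 1.14 (adjusted p 0.0199 by edgeR), and both Sos1 and Nck1 turned negative with endothelial scaling, at -3.97 and -4.26.

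The lists of PI3K, Akt and Foxo genes, which carry the survival signal of Tie2, also went both ways. Of 15 genes, 3 were higher, 6 lower and 6 not past the threshold under TMM, with a median log2 fold change of -0.54. All genes together had 23.3% higher and 21.4% lower. Nos3, the endothelial nitric oxide synthase that Akt activates, was at 141 ± 23.1 CPM (SD, n = 4) in Sca-1+ and 3.57 ± 3.04 CPM (SD, n = 5) in Sca-1- libraries, a log2 fold change of 5.28 (adjusted p 0.000321 by edgeR), and Pik3r3, a regulatory subunit of PI3K, had 5.19 (adjusted p 0.000833 by edgeR). With endothelial scaling these were 0.78 and 0.47 and did not pass. Part of the exons of both is shared with other genes, 25.17% of those of Nos3 with Gm15587 on the opposite strand and 24.32% of those of Pik3r3 with Gm49337 on the same strand, so both values are uncertain. Pik3cg, the catalytic subunit found mainly in leukocytes, fell by 4.48 and Akt2 by 2.82 on the log2 scale (adjusted p 3.78e-05 and 0.000721 by edgeR). Foxo1, the factor that Akt inhibits and that drives Angpt2 in ECs, was among the higher genes under TMM, and Akt1 and Pik3ca did not pass.

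**Figure D5:**
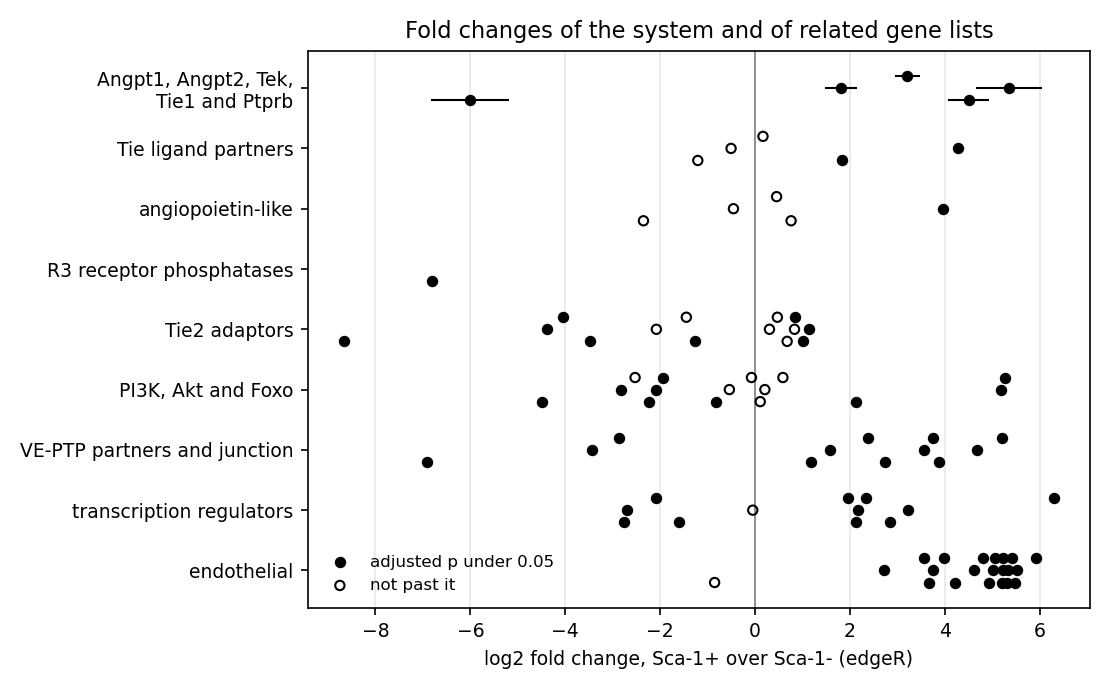
Log2 fold change (Sca-1+ over Sca-1-, edgeR with TMM) of the 5 members with bars of 1 SE, and of the tested genes of the related lists and of the 21 endothelial genes; filled points have an adjusted p under 0.05. The endothelial genes lie mostly between 2.7 and 5.9, near Tek and Ptprb and above Angpt2, while adaptor and PI3K genes fall on both sides of 0. Endothelial scaling moves the median of all genes to -4.82 and turns Tie1 and Angpt2 negative, while Tek and Ptprb do not pass the threshold under it.

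Of 12 tested genes that partner VE-PTP or form the junction, 9 were higher, 3 lower and 0 not past the threshold under TMM, with a median log2 fold change of 2.56. Over all genes, 23.3% were higher and 21.4% lower. Cdh5, Kdr and Cldn5 also stand in the endothelial list. Cdh5, the VE-cadherin of endothelial junctions, was at 264 ± 27.1 CPM (SD, n = 4) in Sca-1+ and 7.13 ± 3.91 CPM (SD, n = 5) in Sca-1- libraries, a log2 fold change of 5.20 (adjusted p 2.56e-05 by edgeR), close in size to that of Ptprb. Fgd5, an endothelial exchange factor for Cdc42, had 4.68 (adjusted p 0.000202 by edgeR). With endothelial scaling these were 0.61 and 0.23 and did not pass, and of the 12 genes 0 were higher and 9 lower, with a median of -2.33. That scaling called 14404 of all 15937 genes lower, and the median of all genes, -4.82, lay below that of the list. Under TMM the 3 lower genes were Src, the tyrosine kinase, which fell by 6.92 on the log2 scale (adjusted p 0.000194 by edgeR), and the small GTPases Rap1b and Rap1a, with -3.44 for Rap1b (adjusted p 0.000485 by edgeR). Src and Rap1b are also abundant in platelets, whose gene list moved the same way, and that part was not tested.

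Of 12 transcription regulators of the system, 7 were higher, 4 lower and Elf2 not past the threshold under TMM, with a median log2 fold change of 2.04. Among all genes, 23.3% were higher and 21.4% lower. Epas1, the hypoxia-inducible factor typical of endothelium, was at 192 ± 22.8 CPM (SD, n = 4) in Sca-1+ and 2.42 ± 1.10 CPM (SD, n = 5) in Sca-1- libraries, a log2 fold change of 6.30 (adjusted p 1.32e-05 by edgeR) and of 1.59 (adjusted p 0.0047 by edgeR) with endothelial scaling. Erg, an ETS factor of endothelium, had 3.21 (adjusted p 0.000663 by edgeR), turning to -1.45 with endothelial scaling. Gata2 fell by 2.76 (adjusted p 0.0014 by edgeR), and the ETS factor Elf1, described as a regulator of Tek, fell by 2.69 (adjusted p 0.00374 by edgeR). ETS factors were thus found on both sides under TMM, with Erg and Ets1 higher and Elf1 and Fli1 lower, though Fli1 overlapped between the fractions. With endothelial scaling Gata2, Elf1, Fli1 and Ets1 had log2 fold changes of -8.11, -8.05, -6.9 and -2.76. The part of megakaryocyte and other blood cell RNA in the differences of Gata2, Elf1 and Fli1 was not tested.

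The genes whose profiles over the 9 libraries were most like each member were chosen by the root mean square difference of centred log2 CPM among 9860 genes, and both the fractions and the libraries within them enter that measure. For Angpt1 they were Pde5a, Src and Samd14, at 0.34, 0.41 and 0.47 log2 units. For Angpt2 they were Fdft1, Zbtb21 and Fkbp9, at 0.24 to 0.28. Tek was closest to Tfpi2, Bace2 and Gm16047, at 0.30 to 0.34, and Tie1 to Elk3, Prkcdbp and Trim3, at 0.24 to 0.26. For Ptprb they were Sox7, an endothelial transcription factor, Grasp and Adcy4, at 0.28, 0.39 and 0.51. No member was among the nearest genes of another, the closest pairs being Tie1 with Angpt2, at 0.80, and Tek with Tie1, at 0.90 log2 units.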

How the data were processed

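RNA-seq libraries of sorted BM cells, 4 Sca-1+ and 5 Sca-1-, were grouped by the deposited labels. The authors deposited whole-number read counts per gene, not normalized, for 46078 Ensembl genes in all 9 libraries; 0 columns were left out. The submitters' processing notes name STAR, featureCounts and mm10; versions, annotation and strand setting are not given in the sources used here. Without molecular identifiers PCR copies are counted, and floors cover counting error alone.

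The edgeR 4.0.16 analysis (R 4.3.3) used filterByExpr by fraction (minimum count 10, minimum total 15), TMM, and the two-sided quasi-likelihood F-test, adjusted by Benjamini-Hochberg over 15937 genes and a threshold of 0.05. SEs were taken from the F statistic. The step was tested on simulated data, as was the exact permutation test. The 8 within-library ratios used log2 CPM (prior count 2) and exact permutation over 126 assignments, two-sided, adjusted over the 8. Levels per kb used the union exon length of GENCODE M21 on GRCm38, in which 45229 deposited genes were found. Libraries within a fraction differed by more than sampling noise (chi-square 39.98 to 585 per degree of freedom).

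The members and gene lists were chosen with earlier results of these data known. Named were the members, Ly6a, Pecam1, Cdh5, Ptprc and Itga2b as checks, from each pathway list the 2 highest and 2 lowest log2 fold changes past the threshold with average log2 CPM not under 3, and for each member the 3 genes with the nearest profile at that level. Other names were chosen after their values were seen. Of 152 list genes 150 were in the table, Angptl8 and Diaph1 not being matched. Ptprc, the gate antigen CD45, was at 0 to 2.55 CPM in Sca-1+ and 17.2 to 47.8 CPM in Sca-1- libraries, and Itga2b, a megakaryocyte integrin, at 9.86 to 11.6 and 5532 to 23250.6 CPM.

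The labels give no replicate number that both fractions share. Libraries 15 and 16 carry the same longer number in their titles, and the marks CD452 and wt each occur in both fractions; what these stand for is not given. The deviations from the fraction means of the consecutive pairs correlated at 0.147 (7 and 8), 0.148 (13 and 14) and 0.042 (15 and 16). The values of 7 with 8 and of 13 with 14 were the highest of all pairs across the fractions. The next was 0.065 (19 and 8), and the lowest was -0.191 (13 and 8). Because the labels do not give pairs, the main fit treated the libraries as unpaired, and replicate blocks were fitted as alternatives. Alternatives changed the scaling, filter, test, pairing and libraries, with DESeq2 1.42.0 and limma 3.58.1 (voom) as other tests. Promoter windows from RefSeq were used for 2 of 5 members. Plots were drawn with matplotlib 3.10.9.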

Additional observations from a re-analysis of the deposited data

Results flagged for a closer look

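Among 82 sets of 4 or 5 libraries, 5 held a library whose distance from its nearest neighbour was large for the range of its fraction. Chance gives about 1 in 20, which is near this share. Sca-1- library 10 accounts for 3 of them, and those that hold Ptprb rest on the same reads. Its log2 CPM of Ptprb was -1.79, from 3 reads, against 2.60 to 3.15 in the other Sca-1- libraries. Its log2 ratio of Ptprb to endothelial genes was -4.58 against -2.08 to -1.15 in the others. Its log2 ratio of Angpt2 to Angpt1 was -6.01 against -3.96 to -3.17. Library 10 also had the lowest TMM factor, 0.581, and the highest megakaryocyte share, 6.05%. Sca-1- library 16 stood above the others in the mean log2 CPM of the 7 leukocyte genes, at 7.22 against 6.55 to 6.69. Sca-1- library 14 had 0 reads of Pik3r3, a log2 CPM of -3.63 set by the prior count, against 1.16 to 2.30 in the others. What set these libraries apart was not tested.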

How the results depend on the processing

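Over 18 alternatives that kept a scaling over all genes, each member kept its direction and stayed past the threshold, with log2 fold changes of -6.39 to -5.45 for Angpt1, 1.45 to 2.19 for Angpt2, 4.25 to 4.83 for Tek, 3.03 to 3.57 for Tie1 and 4.98 to 5.79 for Ptprb. The highest adjusted p was 0.0464, for Angpt2 with a replicate block of consecutive end numbers. Scaling to the endothelial genes changed the calls. It gave 14581 genes past the threshold, 177 higher and 14404 lower (1.21% higher, against 52.14% by TMM), and moved the median of all genes to -4.82, with Angpt2 at -3.0, Tek at -0.17, Tie1 at -1.63 and Ptprb at 0.84, the shift following from the 20 of 21 reference genes that were higher. Library size alone gave 63.11% higher with a median of 0.43. The 6 libraries of the consecutive pairs gave 4340 genes with the replicate block and 5360 without it, against 7137 in all 9, fewer libraries being fitted. A replicate block of libraries 15 and 16 gave 6847 genes and changed no member's call. Leaving out 1 library at a time moved Tie1 over Tek between -1.60 and -1.15 (adjusted p 0.0857 by the exact permutation test without any single Sca-1+ library), Ptprb over Tek between 0.57 and 1.69 (0.0327 without Sca-1- library 8) and Ptprb relative to endothelial genes between 0.58 and 1.44 (0.0327 to 0.0381 without any single Sca-1- library). With a Sca-1- library left out, every other ratio past the threshold took the same adjusted p as those of Ptprb, so these passes are not stronger evidence. With the median of the endothelial genes as reference, the difference of Ptprb relative to them was 0.92 (adjusted p 0.294 by the exact permutation test). What else changed the calls was not tested. Without Sca-1- library 10 and Sca-1+ library 19, an alternative chosen after seeing the data, 6077 genes passed. Over the 8 ratios and their alternatives, 72 values kept sign and side of the threshold, 6 passed it newly, 4 no longer passed and 3 changed sign, all 3 for Tek relative to endothelial genes, which did not pass and ranged from -0.33 to 0.02 with 1 library left out. Depth limits Ptprb in library 10, at 3 reads, and Angpt1 in library 13, at 21.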
